A study of Mus musculus with 8 samples.

Results

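Interferon-stimulated genes are the transcripts that a cell raises after interferon binds its receptors, and 37 of them, taken as rows of the deposited count table by gene symbol, were followed over the 4 groups of the study. They are 37 of the 13607 genes in the table. They were kept in 2 classes: 29 genes usually named with type I interferon (the Ifit, Oas, Mx and Isg15 families, RNA sensors and their regulators) and 8 named with interferon gamma (Irf1, the guanylate-binding proteins Gbp2, Gbp3, Gbp4 and Gbp7, and the immunity-related GTPases Iigp1, Igtp and Irgm1). Members were taken by name, with no threshold on a measured value.

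All cells were cultured mouse astrocytes of the C57BL/6J strain with floxed Yap and Taz alleles, grown in medium with N-2 supplement, EGF and bFGF. The design text describes transduction with lentiviruses for HER2CA, the receptor kinase HER2 in an activated version under doxycycline control, for rtTA, the activator that doxycycline requires, and for CreERT2, a Cre recombinase that 4-hydroxytamoxifen (4OH-TAM) switches on, without saying whether the controls were transduced too. Each group had 2 libraries, A and B. Control astrocytes were not transformed and were kept without doxycycline. HER2CA day 15 cells had doxycycline and, by their condition label, DMSO for 15 days, although the treatment protocol calls them untreated. Cells labelled 4OH-TAM had doxycycline and 1 µM 4OH-TAM over the same 15 days and are labelled as YAP/TAZ knockout. Gliomaspheres were grown in suspension with doxycycline and DMSO, carry the label P1, and were collected 3 weeks after the start. Nothing in the labels ties A and B to different cultures. The p-values below therefore describe the spread between libraries, and that spread may be purely technical.

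Type I interferons bind the receptor made of IFNAR1 and IFNAR2. The kinases JAK1 and TYK2 then activate STAT2, which works with IRF9 in the complex ISGF3 at the interferon-stimulated response element (ISRE). Interferon gamma binds IFNGR1 and IFNGR2 and acts through JAK1 and JAK2 on genes with the gamma-activated site (GAS), and it also raises IRF1, which can bind ISRE-like sequence. The products of the stimulated genes sense foreign RNA, block viral translation, entry or release, and, in the case of the GTPases, attack the vacuoles of intracellular pathogens. Astrocytes respond to both kinds of interferon.

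Promoter sequence was available for 27 of the 37 members in a RefSeq table of 300-base windows (250 bases before and 50 after each annotated start, build GRCm38.p6); Mx1, Mx2, Usp18, Dhx58, Ifi27, Rtp4, Parp14, Zbp1, Gbp4 and Iigp1 were not in it. The ISRE letters searched were GAAA, any 2 bases, GAAA, on both strands, and matches may overlap each other. They occurred in 18 of the 32 windows of these members (56.2%) and in 1131 of all 32851 windows (3.44%). The GAS letters, TTCNNNGAA, which read the same on both strands and may overlap the ISRE letters, occurred in 9 of the 32 windows (28.1%) against 8.30% of all windows. By class, 12 of 21 type I genes and 5 of 6 gamma-type genes had the ISRE letters. A match is a description of the sequence and not a measured binding site.

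**Figure D1:**
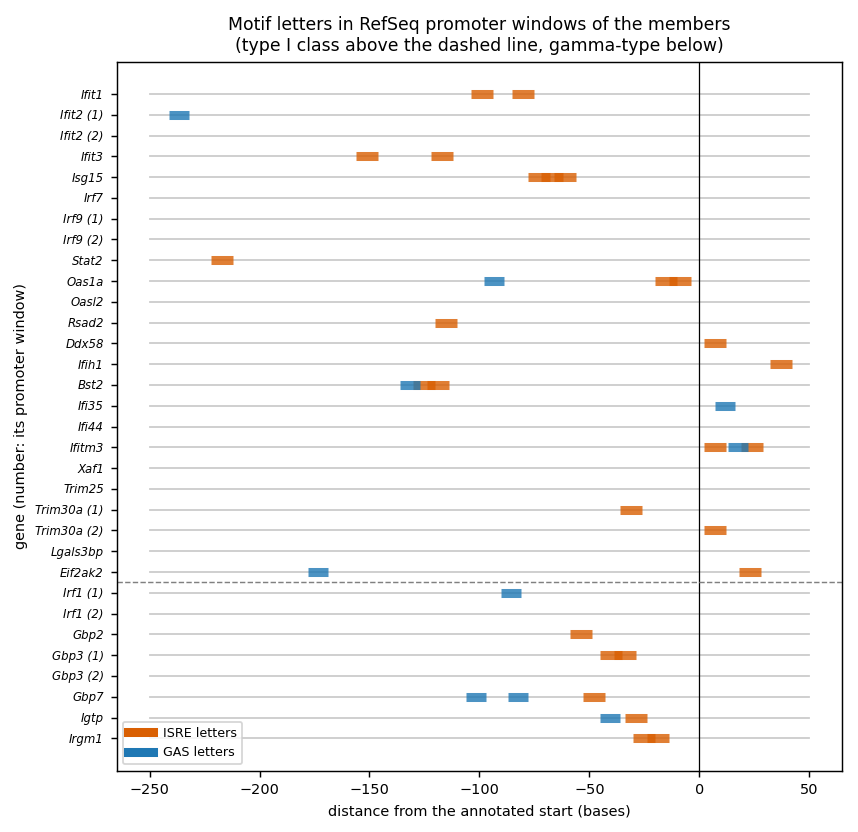
Positions of the ISRE letters (orange) and GAS letters (blue) in 32 promoter windows of 27 members. The x axis gives the distance in bases from the annotated start, and each row is 1 window. Of the 32 windows, 18 hold the ISRE letters and 9 the GAS letters.

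The windows printed here show where the ISRE letters lie in the promoters of some members. Each window runs from 200 bases before to 30 bases after the start, 5′ to 3′ on the strand of the gene. The ISRE letters of either strand are in capitals. The first 5 are the 3 type I and 2 gamma-type members of highest mean CPM (not scaled by length) among those with the letters; Ifit3, Isg15 and Irgm1 were added after their values were seen. Eif2ak2 (chr17:78882543-78882772, minus strand), Ifitm3 (chr7:141010715-141010944, minus strand) and Ddx58 (chr4:40239796-40240025, minus strand) have the letters just after the start. Gbp7 (chr3:142530136-142530365, plus strand) and Gbp2 (chr3:142620463-142620692, plus strand) have them shortly before it. Ifit3 (chr19:34583329-34583558, plus strand) has 2 separate matches, Isg15 (chr4:156200789-156201018, minus strand) has 3 that overlap, and Irgm1 (chr11:48871391-48871620, minus strand) has 2 that overlap.
Eif2ak2: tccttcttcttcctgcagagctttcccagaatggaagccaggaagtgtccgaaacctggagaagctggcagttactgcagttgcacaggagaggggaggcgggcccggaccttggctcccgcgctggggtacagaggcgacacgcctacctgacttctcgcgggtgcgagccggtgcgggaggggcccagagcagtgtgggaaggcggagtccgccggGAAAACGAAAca
Ifitm3: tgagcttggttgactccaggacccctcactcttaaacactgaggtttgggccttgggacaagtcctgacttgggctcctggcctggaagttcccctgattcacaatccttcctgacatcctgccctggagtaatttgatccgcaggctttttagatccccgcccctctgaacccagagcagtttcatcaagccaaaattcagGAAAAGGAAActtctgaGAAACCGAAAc
Ddx58: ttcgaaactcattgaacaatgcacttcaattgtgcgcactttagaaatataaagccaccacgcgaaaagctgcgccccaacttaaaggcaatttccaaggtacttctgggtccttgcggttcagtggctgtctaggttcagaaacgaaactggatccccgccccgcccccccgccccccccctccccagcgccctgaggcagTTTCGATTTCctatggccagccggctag
Gbp7: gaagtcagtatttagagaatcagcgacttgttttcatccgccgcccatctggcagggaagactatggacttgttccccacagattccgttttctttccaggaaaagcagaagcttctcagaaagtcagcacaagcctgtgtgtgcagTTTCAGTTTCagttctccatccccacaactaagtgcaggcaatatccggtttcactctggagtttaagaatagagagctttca
Gbp2: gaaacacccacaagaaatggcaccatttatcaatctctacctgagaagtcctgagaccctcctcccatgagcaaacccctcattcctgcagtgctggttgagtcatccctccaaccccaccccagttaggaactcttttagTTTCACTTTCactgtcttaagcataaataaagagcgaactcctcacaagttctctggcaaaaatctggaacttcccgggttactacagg
Ifit3: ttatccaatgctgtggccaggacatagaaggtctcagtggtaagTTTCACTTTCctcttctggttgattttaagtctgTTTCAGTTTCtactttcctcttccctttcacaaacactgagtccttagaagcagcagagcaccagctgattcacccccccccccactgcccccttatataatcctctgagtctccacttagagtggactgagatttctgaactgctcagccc
Isg15: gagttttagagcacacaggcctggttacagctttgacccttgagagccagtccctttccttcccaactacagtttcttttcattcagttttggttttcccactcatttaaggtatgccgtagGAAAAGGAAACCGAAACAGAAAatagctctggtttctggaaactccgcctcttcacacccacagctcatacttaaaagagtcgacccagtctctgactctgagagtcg
Irgm1: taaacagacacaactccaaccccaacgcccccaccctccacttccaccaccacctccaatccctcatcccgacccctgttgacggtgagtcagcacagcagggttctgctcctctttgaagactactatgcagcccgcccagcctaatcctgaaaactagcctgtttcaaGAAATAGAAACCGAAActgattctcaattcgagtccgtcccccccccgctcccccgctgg

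Total counts ranged from 15517708 to 28231426 per library. Levels are CPM, the counts of a gene as a share of the scaled library total. One library stood apart: gliomaspheres B gave 36.1% of its counts to Rn45s, a ribosomal RNA, and had a scaling factor of 0.637 against 1.03 to 1.12 elsewhere. Astrocyte markers were present in every group, with none of the 10 at 0 counts. Of the genes the knockout label names, Yap1 measured 101 and 103 CPM in HER2CA day 15 and 107 and 103 CPM under the 4OH-TAM label, a log2 fold change of 0.04 that did not pass the test. Wwtr1, which encodes TAZ, was lower there (-0.73). The words "4OH-TAM libraries" thus mean the libraries so labelled, and each direction given for them depends on the label. These are bulk samples, in which fewer cells of a type and less RNA per cell cannot be told apart.

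The type I class was higher in the 4OH-TAM libraries than in HER2CA day 15, the comparison of cells given doxycycline for 15 days with and without 4OH-TAM. A gene was called where edgeR's quasi-likelihood test gave a Benjamini-Hochberg adjusted p under 0.05 over all 13607 genes. Of the 29 type I members 28 were called higher and 0 lower, with a median log2 fold change of 2.55. Over all genes 40.8% were called higher and 39.7% lower, with a median of 0.01. The 5547 genes higher and 5400 lower became 6569 and 4109 with upper-quartile factors and 4338 and 2037 with no scaling factors. Both 4OH-TAM libraries lay above the other 6 libraries for 28 of the 29, a pattern that 13.9% of all genes showed. The exception was Ifit2, whose highest values were in controls (both control libraries above the other 6 for 1 of the 37 members and for 13.4% of all genes). Gliomaspheres were the highest for 0 of the 37 (20.1% of all genes), and the 4OH-TAM libraries were the lowest for 0 (11.0%). The summed level of the class was 919 and 931 CPM in the 4OH-TAM libraries, 327 and 340 CPM in HER2CA day 15, 296 and 300.3 CPM in gliomaspheres and 419 and 420.5 CPM in controls.

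The table holds no gene that fails to reach 1 CPM in 2 or more libraries. Isg15, Oas1a, Mx1, Rtp4, Zbp1 and Iigp1 reach it in 2 libraries only with the 4OH-TAM libraries, and had to be high there to be in the table. Among the other 24 type I members 23 were higher and 0 lower against HER2CA day 15, with a median log2 fold change of 2.11.

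**Figure D2:**
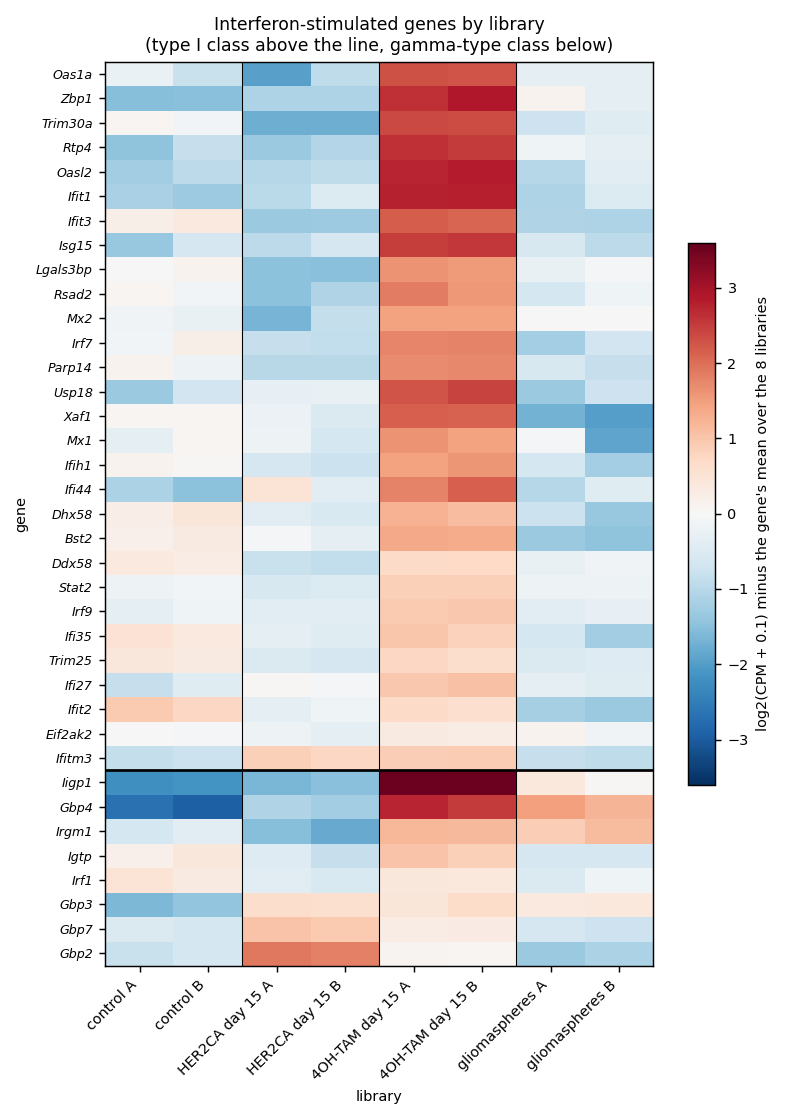
Level of each of the 37 members (rows) in each of the 8 libraries (columns), as log2(CPM + 0.1) minus the gene's mean over the 8 libraries, with type I members above the line and gamma-type members below. The 2 4OH-TAM libraries are the highest for 28 of 29 type I members, while Gbp2 and Gbp7 at the foot are highest in HER2CA day 15. Of the 28, 5 are in the table only through the 4OH-TAM libraries.

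Markers of several cell types moved with this result, among them those of microglia and macrophages. Of 18 measured markers 17 were higher and 1 (Cd68) was lower in the 4OH-TAM libraries than in HER2CA day 15, with a median log2 fold change of 2.74. Over all genes 40.8% were called higher and 39.7% lower. Of the 18, 2 are in the table only through the 4OH-TAM libraries and had to be high there. Among the other 16, 15 were higher and 1 lower. The summed level of the 18 was 1288 and 1232 CPM in 4OH-TAM libraries A and B and 268 and 283 CPM in HER2CA day 15. It was 164 and 159.6 CPM in gliomaspheres and 278 and 309 CPM in controls. The median level of the 18 was 23.1 and 22.9 CPM in the 4OH-TAM libraries and 3.76 and 3.92 in HER2CA day 15. In gliomaspheres that median was 4.61 and 5.06 CPM, and in controls 6.22 and 6.53. The lysozyme gene Lyz2 was at 41.2 and 39.5 CPM in HER2CA day 15, 729 and 713 in the 4OH-TAM libraries, 56.2 and 51.5 in gliomaspheres and 55.7 and 67.2 in controls. Lyz2 thus made up most of the sum in the 4OH-TAM libraries. The pan-leukocyte gene Ptprc was at 1.65 and 1.69 CPM in HER2CA day 15, 11.1 and 11.2 in the 4OH-TAM libraries, 1.26 and 1.32 in gliomaspheres and 3.57 and 3.95 in controls. The adaptor gene Tyrobp was at 3.53 and 3.83 CPM in HER2CA day 15, 25.6 and 24.1 in the 4OH-TAM libraries, 2.93 and 1.72 in gliomaspheres and 4.26 and 4.45 in controls. Cx3cr1 had its highest mean in controls (5.94 CPM, against 5.66 in the 4OH-TAM libraries). P2ry12 had it in gliomaspheres (2.80 against 1.86) and Cd68 in HER2CA day 15 (129 against 88.8). All other markers of the 18 had their highest mean in the 4OH-TAM libraries. None of the 18 was at 0 counts in any library, and Aif1 was not analysed here. Astrocyte markers were higher for 10 of 10 (median 3.31) and oligodendrocyte lineage markers for 8 of 8 (3.67). Fibroblast and mural markers were higher for 6 of 7, with 1 lower (1.93). Of 6 endothelial markers listed, only Kdr and Flt1 were measured, and both were higher (3.42). In the table only through the 4OH-TAM libraries were 1 fibroblast and mural marker and 1 endothelial marker, Kdr. The 2 plasmacytoid dendritic cell markers measured were also higher (1.96). These are Bst2, itself a type I member, and Irf8, so they are not separate from the interferon genes. The part of these marker lists in the interferon result was not tested. Markers of T and NK lymphocytes (6 genes) were not in the count table, and Siglech, of plasmacytoid dendritic cells, was not analysed here.

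Among the transcription factors, Irf7, which amplifies interferon production, was at 1.19 and 1.14 CPM in HER2CA day 15, 7.66 and 7.84 in the 4OH-TAM libraries, 0.880 and 1.32 in gliomaspheres and 2.04 and 2.55 in controls. The 4OH-TAM libraries were well above the rest, and the log2 fold change against HER2CA day 15 was 2.73 (SE 0.19). Irf9, the DNA-binding subunit of ISGF3, was at 16.8 and 16.7 CPM in HER2CA day 15, 42.4 and 42.7 in the 4OH-TAM libraries, 16.8 and 17.9 in gliomaspheres and 17.2 and 19.7 in controls. Stat2, its partner, was at 13.2 and 14.1 CPM in HER2CA day 15, 36.6 and 36.6 in the 4OH-TAM libraries, 17.7 and 17.6 in gliomaspheres and 17.7 and 18.5 in controls. For Irf9 the other 3 groups lay close together, for Stat2 HER2CA day 15 was the lowest, and for both the 4OH-TAM libraries lay above all others, by log2 fold changes of 1.34 (SE 0.09) and 1.42 (SE 0.09) against HER2CA day 15.

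The Ifit genes, whose proteins bind viral RNA or block its translation, differed among themselves. Ifit1 was at 2.29 and 3.21 CPM in HER2CA day 15, 31.7 and 32.4 in the 4OH-TAM libraries, 2.05 and 3.24 in gliomaspheres and 1.997 and 1.81 in controls. Ifit3 was at 7.01 and 7.21 CPM in HER2CA day 15, 82.0 and 77.3 in the 4OH-TAM libraries, 8.42 and 8.30 in gliomaspheres and 20.9 and 23.0 in controls. Ifit2 was at 30.4 and 34.8 CPM in HER2CA day 15, 62.5 and 59.1 in the 4OH-TAM libraries, 16.7 and 15.4 in gliomaspheres and 74.8 and 65.4 in controls. Ifit1 and Ifit3 were 11.4 and 11.2 times as high in the 4OH-TAM libraries as in HER2CA day 15 (edgeR adjusted p = 4.75e-11 and 4.22e-13), without overlap with any other group. Ifit2 was 1.86 times as high (edgeR adjusted p = 3.26e-07), and its 4OH-TAM libraries lay below both controls. Of the 50-base stretches of Ifit3 transcripts, 51.2% also occur in Ifit3b, so the division of reads between them is uncertain; Ifit3b was itself higher, by 4.79 (SE 0.19) on the log2 scale.

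Of the ISG15 system, Isg15, the ubiquitin-like modifier, was at 0.504 and 0.655 CPM in HER2CA day 15, 6.43 and 6.66 in the 4OH-TAM libraries, 0.671 and 0.506 in gliomaspheres and 0.346 and 0.659 in controls. Usp18, the protease that removes it and also dampens the type I receptor, was at 1.83 and 1.86 CPM in HER2CA day 15, 11.2 and 12.6 in the 4OH-TAM libraries, 0.838 and 1.32 in gliomaspheres and 0.845 and 1.36 in controls. Both genes were highest in the 4OH-TAM libraries, with log2 fold changes against HER2CA day 15 of 3.46 (SE 0.24) and 2.68 (SE 0.19).

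The oligoadenylate synthetase genes, whose products switch on RNase L, were low outside the 4OH-TAM libraries. Oasl2 was at 2.20 and 2.38 CPM in HER2CA day 15, 31.7 and 33.2 in the 4OH-TAM libraries, 2.22 and 3.44 in gliomaspheres and 1.88 and 2.35 in controls. Its log2 fold change against HER2CA day 15 was 3.82 (SE 0.16), and the other 3 groups overlapped. Oas1a was at 0 and 0.103 CPM in HER2CA day 15, 1.80 and 1.76 in the 4OH-TAM libraries, 0.210 and 0.202 in gliomaspheres and 0.230 and 0.124 in controls. These Oas1a levels rest on 93 reads in the 4OH-TAM libraries together against 3 in HER2CA day 15, a ratio of 30.1 with a 95% counting interval of 10 to 149 that covers counting error only. Oas1a shares 57.6% of its 50-base stretches with Oas1g, which was not analysed here, so its own share of these reads is uncertain.

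The dynamin-like GTPases and viperin act directly on viruses. Mx1, whose C57BL/6 allele is known to yield no functional protein, was at 0.229 and 0.138 CPM in HER2CA day 15, 1.03 and 0.918 in the 4OH-TAM libraries, 0.251 and 0 in gliomaspheres and 0.192 and 0.288 in controls. Mx2 was at 0.458 and 0.897 CPM in HER2CA day 15, 4.83 and 4.78 in the 4OH-TAM libraries, 1.72 and 1.72 in gliomaspheres and 1.54 and 1.40 in controls. Rsad2, which encodes viperin, was at 0.871 and 1.17 CPM in HER2CA day 15, 9.54 and 7.96 in the 4OH-TAM libraries, 1.63 and 2.33 in gliomaspheres and 2.76 and 2.43 in controls. For all 3 genes both 4OH-TAM libraries were above the rest, by log2 fold changes of 2.43 (SE 0.49), 2.76 (SE 0.24) and 3.07 (SE 0.21) against HER2CA day 15.

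The RNA sensors were also higher. Ddx58, which encodes RIG-I, was at 18.3 and 17.2 CPM in HER2CA day 15, 51.5 and 52.4 in the 4OH-TAM libraries, 26.2 and 29.3 in gliomaspheres and 40.9 and 38.4 in controls. Ifih1, which encodes MDA5, was at 2.98 and 2.66 CPM in HER2CA day 15, 12.8 and 14.1 in the 4OH-TAM libraries, 2.93 and 1.92 in gliomaspheres and 5.03 and 4.70 in controls. Dhx58, which encodes their regulator LGP2, was at 1.28 and 1.14 CPM in HER2CA day 15, 4.25 and 3.83 in the 4OH-TAM libraries, 0.964 and 0.607 in gliomaspheres and 2.04 and 2.35 in controls. In these 3 sensors the 4OH-TAM libraries stood highest and the controls came next, with log2 fold changes against HER2CA day 15 of 1.55 (SE 0.09), 2.26 (SE 0.16) and 1.74 (SE 0.21). Eif2ak2, the kinase PKR that halts translation on double-stranded RNA, was at 60.9 and 55.4 CPM in HER2CA day 15, 87.0 and 83.9 in the 4OH-TAM libraries, 76.0 and 64.2 in gliomaspheres and 68.9 and 66.9 in controls, and its log2 fold change of 0.56 (SE 0.08) was the smallest among the called type I members. Zbp1, a sensor of left-handed nucleic acid that can trigger necroptosis, was at 0.137 and 0.138 CPM in HER2CA day 15, 3.10 and 3.71 in the 4OH-TAM libraries, 0.461 and 0.304 in gliomaspheres and 0.0768 and 0.0824 in controls. It stayed below 0.5 CPM outside the 4OH-TAM libraries, and its log2 fold change was 4.58 (SE 0.34). Trim25, a ubiquitin ligase that acts on RIG-I, was at 20.5 and 19.5 CPM in HER2CA day 15, 48.9 and 45.6 in the 4OH-TAM libraries, 20.3 and 21.3 in gliomaspheres and 39.2 and 36.8 in controls and rose by 1.24 (SE 0.09) on the log2 scale.

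Restriction factors at membranes did not move alike. Bst2, which encodes tetherin, was at 8.16 and 6.62 CPM in HER2CA day 15, 22.1 and 21.4 in the 4OH-TAM libraries, 3.31 and 3.04 in gliomaspheres and 9.64 and 10.5 in controls. It rose by 1.57 (SE 0.13), and its gliomasphere libraries were the lowest. Ifitm3, which blocks virus entry from endosomes, was at 96.9 and 89.7 CPM in HER2CA day 15, 99.1 and 102 in the 4OH-TAM libraries, 30.5 and 28.6 in gliomaspheres and 29.4 and 31.3 in controls. In Ifitm3 the 2 day 15 groups were both well above the rest. The 4OH-TAM libraries exceeded HER2CA day 15 without overlap but by only 0.11 (SE 0.07), which did not pass the test (edgeR adjusted p = 0.175), though it did with upper-quartile scaling (0.32). Of its 50-base stretches 10.02% occur in other genes. Ifi27, a small mitochondrial membrane protein gene, was at 22.4 and 20.8 CPM in HER2CA day 15, 42.3 and 44.8 in the 4OH-TAM libraries, 17.2 and 16.0 in gliomaspheres and 12.1 and 16.1 in controls, a rise of 1.01 (SE 0.11) in the 4OH-TAM libraries over HER2CA day 15.

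The other type I members covered varied functions and all were called higher. Trim30a, a TRIM protein that restrains inflammatory signalling, was at 1.33 and 1.35 CPM in HER2CA day 15, 25.0 and 24.5 in the 4OH-TAM libraries, 2.81 and 3.54 in gliomaspheres and 5.07 and 4.49 in controls. Rtp4, a transporter-like protein that restricts some RNA viruses, was at 0.550 and 0.690 CPM in HER2CA day 15, 10.1 and 9.37 in the 4OH-TAM libraries, 1.38 and 1.21 in gliomaspheres and 0.499 and 0.824 in controls. Parp14, a mono-ADP-ribosyltransferase, was at 3.76 and 3.76 CPM in HER2CA day 15, 24.6 and 25.3 in the 4OH-TAM libraries, 5.07 and 4.25 in gliomaspheres and 8.18 and 6.67 in controls. The fold changes of these 3 on the log2 scale were 4.20 (SE 0.16), 3.94 (SE 0.22) and 2.73 (SE 0.14), and Trim30a was lowest in HER2CA day 15. Lgals3bp, a secreted glycoprotein that binds galectins, was at 16.6 and 16.2 CPM in HER2CA day 15, 141 and 134 in the 4OH-TAM libraries, 38.0 and 44.8 in gliomaspheres and 45.7 and 50.1 in controls. Xaf1, which promotes apoptosis by binding XIAP, was at 2.66 and 2.104 CPM in HER2CA day 15, 13.9 and 13.8 in the 4OH-TAM libraries, 0.880 and 0.708 in gliomaspheres and 3.23 and 3.21 in controls. In both genes no library of another group reached the 4OH-TAM libraries, and the log2 fold changes were 3.07 (SE 0.09) and 2.55 (SE 0.15). The lowest group was HER2CA day 15 for Lgals3bp and gliomaspheres for Xaf1. Ifi44, a cytoplasmic interferon-induced protein gene, was at 2.20 and 1.17 CPM in HER2CA day 15, 5.55 and 7.19 in the 4OH-TAM libraries, 0.712 and 1.11 in gliomaspheres and 0.653 and 0.494 in controls. Ifi35, whose product partners with NMI, was at 4.08 and 3.86 CPM in HER2CA day 15, 10.5 and 9.37 in the 4OH-TAM libraries, 3.31 and 2.12 in gliomaspheres and 7.53 and 6.63 in controls. They rose by 1.96 (SE 0.24) and 1.32 (SE 0.16). Ifi44 had the widest gap between HER2CA day 15 libraries A and B of any member with a mean of at least 1 CPM there (0.91 on the log2 scale).

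**Figure D3:**
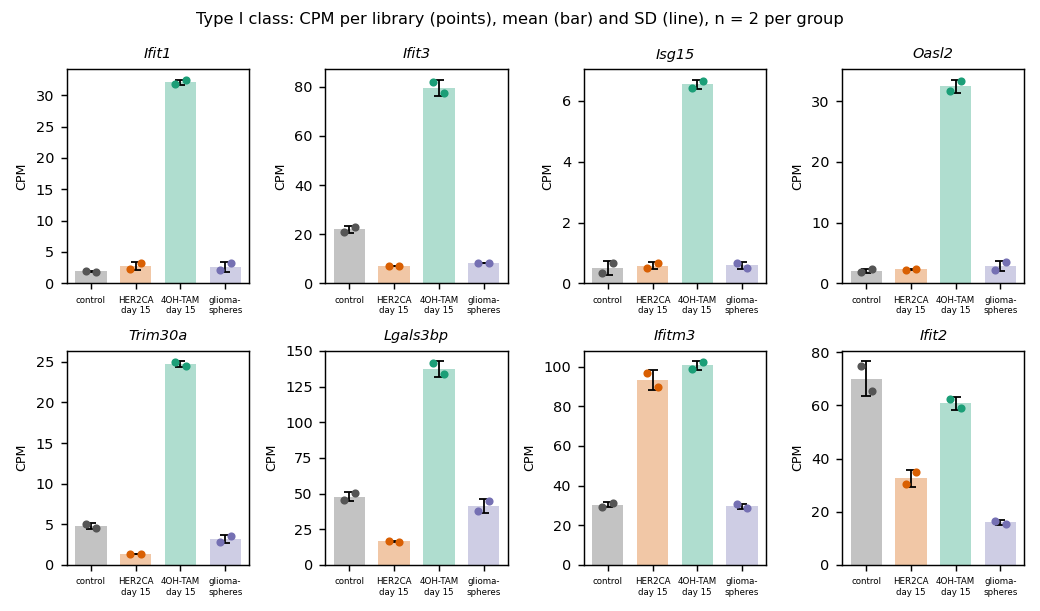
CPM of 8 type I members in each library (points), with the group mean (bar) and SD (line), n = 2 per group. In 6 of them the 4OH-TAM libraries stand alone, in Ifitm3 both day 15 groups are high, and in Ifit2 the controls are highest.

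The gamma-type class was divided in the same comparison: 5 of 8 members were called higher and 2 lower in the 4OH-TAM libraries than in HER2CA day 15, with a median log2 fold change of 1.23. Over all genes 40.8% were called higher and 39.7% lower. Iigp1, Gbp4, Irgm1, Igtp and Irf1 were higher, Gbp2 and Gbp7 were lower, and Gbp3 was not called. Without Iigp1, which is in the table only through the 4OH-TAM libraries, 4 were higher and 2 lower (median 0.87).

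The immunity-related GTPases were all higher. Iigp1, an effector that coats and ruptures parasite vacuoles, was at 0.275 and 0.310 CPM in HER2CA day 15, 13.4 and 13.4 in the 4OH-TAM libraries, 1.42 and 1.11 in gliomaspheres and 0.154 and 0.165 in controls. Irgm1, a regulator of the effectors and of autophagy, was at 6.69 and 5.45 CPM in HER2CA day 15, 44.4 and 43.6 in the 4OH-TAM libraries, 36.3 and 42.7 in gliomaspheres and 12.6 and 14.7 in controls. Igtp, another regulator, was at 6.83 and 5.28 CPM in HER2CA day 15, 19.1 and 17.2 in the 4OH-TAM libraries, 6.12 and 6.17 in gliomaspheres and 10.8 and 12.4 in controls. Iigp1 showed the highest fold change of all members, 44.6 times (log2 5.48, SE 0.22, edgeR adjusted p = 9.12e-12). It had to be high in the 4OH-TAM libraries to be in the table. Among members without that condition the largest log2 fold change was that of Trim30a, 4.20 (SE 0.16). Irgm1 was high in gliomaspheres as well as in the 4OH-TAM libraries, and for Igtp the controls stood between the 4OH-TAM libraries and the other 2 groups. Igtp shares exonic bases with Irgm2 on the same strand and 11.8% of its 50-base stretches with other genes, so reads of the 2 may be split uncertainly.

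The guanylate-binding proteins, GTPases that help lyse pathogen vacuoles, took 3 courses. Gbp2 was at 169 and 160.4 CPM in HER2CA day 15, 48.8 and 47.4 in the 4OH-TAM libraries, 17.9 and 20.7 in gliomaspheres and 26.2 and 29.2 in controls. Gbp7 was at 139 and 132 CPM in HER2CA day 15, 82.7 and 84.4 in the 4OH-TAM libraries, 44.8 and 40.7 in gliomaspheres and 47.5 and 44.4 in controls. Both were highest in HER2CA day 15 with no overlap, as were 31.5% of all genes, and in the 4OH-TAM libraries Gbp2 was 3.42 times lower and Gbp7 1.62 times lower than there (edgeR adjusted p = 3.90e-11 and 4.22e-07). With no scaling factors the Gbp7 call was lost (adjusted p = 0.0944 in the edgeR test). Gbp3 was at 28.6 and 27.9 CPM in HER2CA day 15, 25.1 and 29.4 in the 4OH-TAM libraries, 23.8 and 24.3 in gliomaspheres and 5.95 and 6.88 in controls. The 3 groups with doxycycline were close for Gbp3, and the controls were low. Gbp4 was at 0.550 and 0.483 CPM in HER2CA day 15, 9.23 and 7.84 in the 4OH-TAM libraries, 3.77 and 3.14 in gliomaspheres and 0.115 and 0.0824 in controls. It was highest in the 4OH-TAM libraries, intermediate in gliomaspheres and near 0 in controls, and the rise over HER2CA day 15 was 4.04 (SE 0.22) on the log2 scale. Gbp4 overlaps exons of Gbp8 and Gbp9 on the same strand, and Gbp7 shares 12.7% of its 50-base stretches with other genes.

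Irf1, the transcription factor that interferon gamma raises early, was at 10.7 and 9.59 CPM in HER2CA day 15, 18.7 and 18.2 in the 4OH-TAM libraries, 9.68 and 12.5 in gliomaspheres and 19.8 and 17.6 in controls. HER2CA day 15 and gliomaspheres overlapped at the lower level, and the 4OH-TAM libraries and controls overlapped at the higher one. Its log2 fold change against HER2CA day 15 was 0.87 (SE 0.13).

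**Figure D4:**
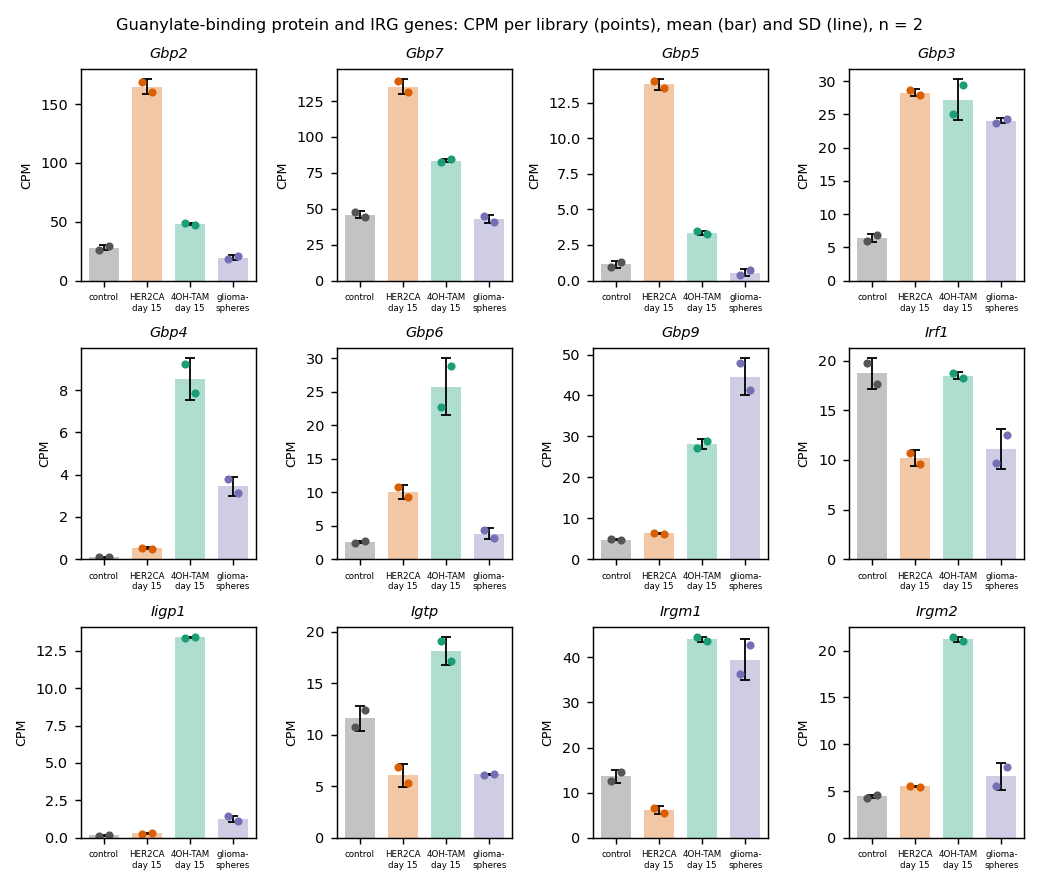
CPM of guanylate-binding protein genes, immunity-related GTPase genes and Irf1 in each library (points), with the group mean (bar) and SD (line), n = 2 per group. Gbp2, Gbp7 and Gbp5 are highest in HER2CA day 15, Gbp3 is low only in controls, and Iigp1 is high only in the 4OH-TAM libraries, at a mean of 13.4 CPM against 0.293 CPM in HER2CA day 15. Gbp5, Gbp6, Gbp9 and Irgm2 are relatives outside the list of 37.

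HER2CA day 15 was then compared with control astrocytes, which shows the culture with the oncogene induced against the untransformed one. This comparison shares the HER2CA day 15 libraries with the one above, so their values are not independent. Of the 29 type I members 5 were called higher and 17 lower (37.3% and 38.4% of all genes, or 2304 and 3586 genes with no scaling factors in place of 5082 and 5226), with a median log2 fold change of -0.46. The 5 members that are in the table only through the 4OH-TAM libraries were not called here, and the median of the other 24 was -0.82. The largest falls were in Trim30a (-1.83, SE 0.19), Ifit3 (-1.62, SE 0.10), Lgals3bp (-1.55, SE 0.09) and Rsad2 (-1.32, SE 0.25). The sensors Ddx58 (-1.16), Ifih1 (-0.80) and Dhx58 (-0.86) were lower, as were Ifit2 (-1.10), Mx2 (-1.05), Parp14 (-0.98), Irf7 (-0.97), Trim25 (-0.93) and Ifi35 (-0.84). Smaller falls were called for Bst2 (-0.46), Xaf1 (-0.45), Stat2 (-0.40) and Eif2ak2 (-0.23). For 11 type I members and Irgm1 both HER2CA day 15 libraries lay below the other 6. These are 12 of the 37 members (32.4%), near the 30.2% of all genes.

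Against this majority, Ifitm3 was 3.07 times as high in HER2CA day 15 as in controls (edgeR adjusted p = 8.67e-11). Ifi44, Usp18, Ifi27 and Ifit1 were also higher, by 1.49 (SE 0.38), 0.75 (SE 0.27), 0.62 (SE 0.12) and 0.55 (SE 0.22). Isg15, Irf9, Oas1a, Oasl2, Mx1, Rtp4 and Zbp1 did not pass the test. The Ifit1 call was lost without HER2CA day 15 B (edgeR adjusted p = 0.405) and with upper-quartile factors (0.121), and the Usp18 call was lost without control A (0.211). The small falls of Xaf1, Bst2 and Eif2ak2 were lost without HER2CA day 15 B as well (0.268, 0.0958 and 0.201). Of the microglia and macrophage markers 11 of 18 were lower and 1 higher in this comparison (38.4% and 37.3% of all genes). Astrocyte markers were lower for 9 of 10 and oligodendrocyte lineage markers for 7 of 8. The part of these markers in the result was not tested.

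Of the 8 gamma-type members 4 were higher and 3 lower in HER2CA day 15 than in controls, with a median of 1.21. These shares lie near those of all genes, 37.3% higher and 38.4% lower, and without Iigp1 the median was 1.55. All 4 guanylate-binding proteins rose: Gbp2 by 2.57 (SE 0.09), Gbp4 by 2.31 (SE 0.54), Gbp3 by 2.14 (SE 0.12) and Gbp7 by 1.55 (SE 0.08). Gbp2 in HER2CA day 15 was 5.94 times its control level (edgeR adjusted p = 2.27e-12). Irgm1 (-1.18, SE 0.13), Igtp (-0.95, SE 0.15) and Irf1 (-0.89, SE 0.13) fell, and Iigp1 was not called at 0.87. The summed level of the class was highest in HER2CA day 15, at 341 and 361.5 CPM, against 261 and 262 CPM in the 4OH-TAM libraries, 144 and 151 CPM in gliomaspheres and 123 and 126 CPM in controls. Gbp2 and Gbp7, at means of 165 and 135 CPM, made up most of that sum in HER2CA day 15. The median level over the 8 members was instead lowest there, at 8.78 and 7.52 CPM in A and B. It was 22.1 and 23.8 CPM in the 4OH-TAM libraries, 13.8 and 16.6 in gliomaspheres and 11.7 and 13.6 in controls.

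**Figure D5:**
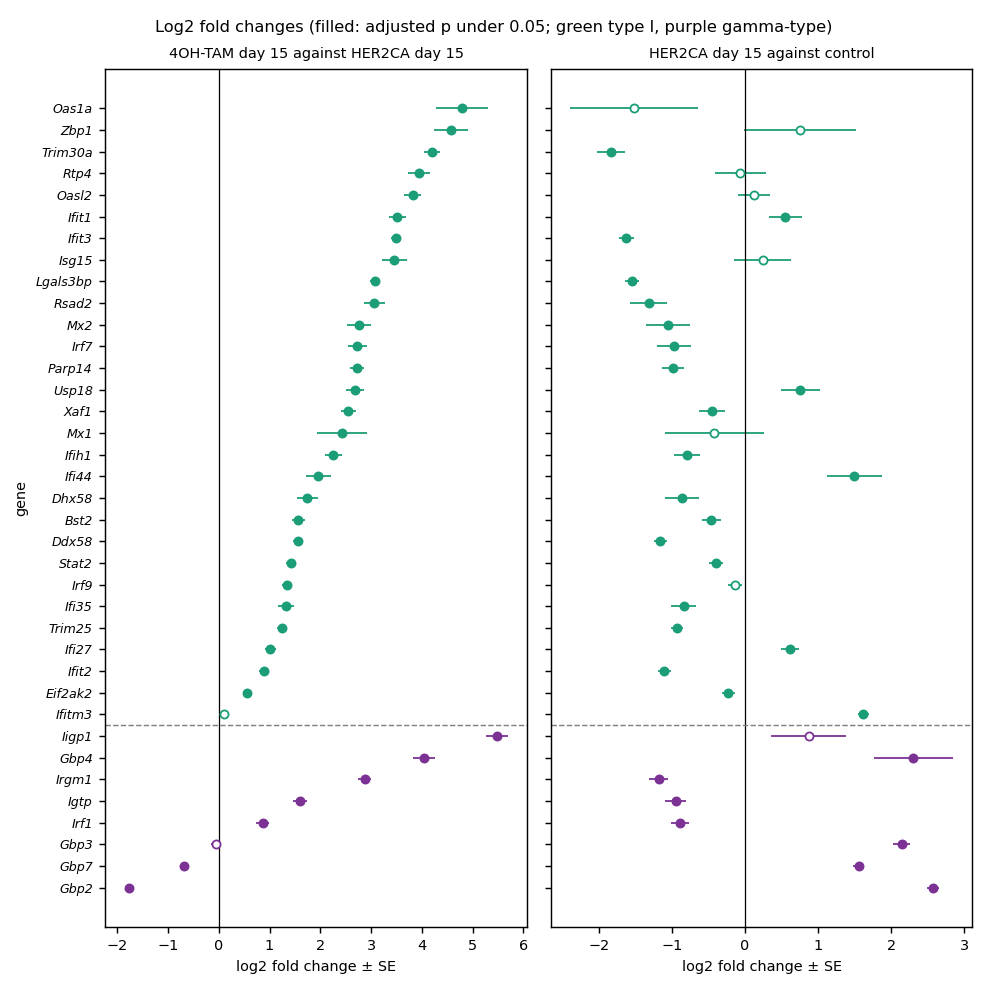
Log2 fold change (x axis) with its standard error for each of the 37 members, for 4OH-TAM day 15 against HER2CA day 15 (left) and HER2CA day 15 against control (right). Filled points passed the test; 28 of 29 type I members (green) are filled to the right of 0 on the left side, and 17 are filled to the left of 0 on the right side, while Gbp2 and Gbp7 (purple) go the other way in each.

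The 4OH-TAM libraries were also above the untransformed astrocytes. Against controls 28 of 29 type I members were called higher and 0 lower, where 31.0% and 28.2% of all genes were (4221 and 3840 genes, or 2115 and 539 with no scaling factors), with a median log2 fold change of 1.75. Without the 5 type I members that are in the table only through the 4OH-TAM libraries, 23 of 24 were higher. The largest increases were in Zbp1 (5.33, SE 0.38), Ifit1 (4.07, SE 0.17), Oasl2 (3.94, SE 0.16) and Rtp4 (3.88, SE 0.21), with Zbp1 and Rtp4 among those 5. Ifit1 was 16.8 times and Oasl2 15.4 times its control level. Apart from Zbp1, the sensors and their regulators rose less than these 4: Ifih1 1.46, Dhx58 0.88, Ddx58 0.39, Eif2ak2 0.33 and Trim25 0.31. Ifit2 was at -0.21 and not called (edgeR adjusted p = 0.057); in fits with only these 2 groups (0.021), or without control B (0.0281), it was called lower. The calls of Ddx58, Eif2ak2, Trim25 and Ifi35 were lost with no scaling factors (edgeR adjusted p = 0.337, 0.425, 0.464 and 0.247). Microglia and macrophage markers were higher for 15 of 18 and lower for 0 in this comparison, astrocyte markers for 8 of 10 and 1, oligodendrocyte lineage markers for 6 of 8 and 2, and their part was not tested. Without the 2 microglia and macrophage markers in the table only through the 4OH-TAM libraries, 14 of 16 were higher and 0 lower.

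Of the gamma-type members 7 of 8 were higher than in controls in the 4OH-TAM libraries and 0 lower (31.0% and 28.2% of all genes), with a median of 1.28. Without Iigp1, 6 of 7 were higher, with a median of 0.86. Gbp4 rose by 6.35 (SE 0.30) and Iigp1 by 6.35 (SE 0.24), from control levels that rest on few reads. Gbp3 rose by 2.09 (SE 0.12), Irgm1 by 1.69 (SE 0.11), Gbp7 by 0.86 (SE 0.08), Gbp2 by 0.80 (SE 0.09) and Igtp by 0.65 (SE 0.13). Irf1 was at -0.02 with overlapping libraries (edgeR adjusted p = 0.899).

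Gliomaspheres were next compared with controls. Of the type I class 2 of 29 type I members were called higher and 13 lower (32.5% and 32.0% of all genes, 4427 and 4353, or 1386 and 3260 with no scaling factors), with a median of -0.23. Without the 5 that are in the table only through the 4OH-TAM libraries, 0 of 24 were higher and 13 lower, with a median of -0.50. Both gliomasphere libraries lay below the other 6 for Ifit2, Dhx58, Bst2, Ifi35, Xaf1 and Gbp2, 6 of the 37 members (18.1% of all genes). The largest falls were in Ifit2 (-2.11, SE 0.10), Xaf1 (-1.95, SE 0.25), Bst2 (-1.65, SE 0.16) and Ifit3 (-1.39, SE 0.11). Dhx58 (-1.35), Ifi35 (-1.28), Irf7 (-1.17), Ifih1 (-0.91), Trim25 (-0.87), Trim30a (-0.65), Parp14 (-0.64), Ddx58 (-0.53) and Lgals3bp (-0.23) were also lower. Zbp1 and Rtp4, both of them among those 5, were higher, by 2.30 (SE 0.65) and 1.01 (SE 0.32), at levels under 2 CPM. Both increases were lost without gliomaspheres A (edgeR adjusted p = 0.151 and 0.152), as were the falls of Irf7 (0.0906), Trim30a (0.148) and Lgals3bp (0.436). Microglia and macrophage markers were lower for 8 of 18 and higher for 1, astrocyte markers were higher for 8 of 10 and oligodendrocyte lineage markers for 6 of 8, and their part was not tested.

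Controls were the lowest for Ifit1, Ifi44, Zbp1, Gbp3, Gbp4 and Iigp1, also 6 of the 37 (12.1% of all genes). In the gamma-type class gliomaspheres had 4 of 8 members above controls and 3 below (32.5% and 32.0% of all genes), with a median of 0.71. Without Iigp1, which is in the table only through the 4OH-TAM libraries, 3 were above and 3 below, and the median turned to -0.10. Gbp4 rose by 5.09 (SE 0.37), Iigp1 by 3.02 (SE 0.39), Gbp3 by 1.90 (SE 0.12) and Irgm1 by 1.52 (SE 0.12). Igtp (-0.92, SE 0.16), Irf1 (-0.80, SE 0.13) and Gbp2 (-0.54, SE 0.10) fell, and Gbp7 was at -0.10, not called.

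Against HER2CA day 15, with which they share induced HER2CA, gliomaspheres had 9 type I members higher and 7 lower (38.4% and 40.4% of all genes) and a median of 0.05, which turned to -0.22 with no scaling factors and to -0.03 without the 5 members in the table only through the 4OH-TAM libraries (7 higher and 7 lower of 24). Ifitm3 was 3.14 times lower (edgeR adjusted p = 6.36e-11), and Xaf1 (-1.50, SE 0.26), Bst2 (-1.19, SE 0.17) and Ifit2 (-1.01, SE 0.11) also fell. Usp18 (-0.90), Ifi44 (-0.96) and Ifi27 (-0.37) were the other type I members called lower. Lgals3bp, Mx2 and Trim30a rose by 1.32 (SE 0.10), 1.28 (SE 0.31) and 1.19 (SE 0.22), and Rtp4 (1.07), Rsad2 (0.84), Ddx58 (0.63), Stat2 (0.37) and Eif2ak2 (0.28) were higher. Zbp1, at 1.55 (SE 0.58), was called here but not without gliomaspheres A (edgeR adjusted p = 0.324). Of the gamma-type members 3 were higher and 3 lower, with a median of 0.06 (-0.21 with no scaling factors), and without Iigp1 2 were higher and 3 lower. Gbp2 was 8.65 times lower than in HER2CA day 15 and Gbp7 3.14 times lower, while Gbp4, Irgm1 and Iigp1 were 6.87, 6.49 and 4.43 times higher. The fall of Gbp3 (-0.24) was lost with DESeq2 (adjusted p = 0.141). Microglia and macrophage markers were higher for 5 of 18 and lower for 4, astrocyte markers were higher for 9 of 10 and oligodendrocyte lineage markers for 7 of 8, and their part was not tested.

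Against the 4OH-TAM libraries, gliomaspheres had 0 type I members higher and 29 lower (31.3% and 29.7% of all genes, 4255 and 4041, or 749 and 3450 with no scaling factors), with a median of -2.38. Among the 24 that do not depend on the 4OH-TAM libraries for their place in the table, 24 were lower. The falls were largest in Xaf1 (-4.06, SE 0.21), Ifit1 (-3.71, SE 0.18), Oasl2 (-3.63, SE 0.17) and Usp18 (-3.59, SE 0.23). Of the gamma-type members 0 were higher and 6 lower (5 of 7 without Iigp1), led by Iigp1 (-3.33, SE 0.18), Igtp (-1.56, SE 0.15) and Gbp2 (-1.34, SE 0.09). Irgm1 and Gbp3 were the 2 not called, at -0.17 and -0.18 (edgeR adjusted p = 0.172 and 0.143). Of the microglia and macrophage markers 17 of 18 were lower and 1 higher, of astrocyte markers 3 of 10 lower and 4 higher, of oligodendrocyte lineage markers 3 of 8 lower and 3 higher, and their part was not tested. Without the 2 microglia and macrophage markers in the table only through the 4OH-TAM libraries, 15 of 16 were lower and 1 higher.

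The order of levels among members is given per kilobase of exon, since longer transcripts give more reads. On that scale Ifitm3 was the highest member in every group, at a mean of 44.8 CPM per kb in controls, 138 in HER2CA day 15, 149 in the 4OH-TAM libraries and 43.6 in gliomaspheres. In HER2CA day 15 Gbp2 came next, at 65.5 CPM per kb, then Gbp7 at 24.1. In the 4OH-TAM libraries Lgals3bp (48.3) and Ifit3 (45.6) came next, followed by Ifi27 (29.7), Bst2 (24.1) and Gbp2 (19.1). In controls Ifit2 (17.9 CPM per kb) and Lgals3bp (16.8) came next, and in gliomaspheres Lgals3bp (14.6) and Eif2ak2 (13.7). Oas1a, Mx1, Ifi44, Zbp1, Gbp4 and Iigp1 were each below 0.3 CPM per kb in both controls and HER2CA day 15.

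The genes that make and relay the interferon signal were read in the same fit. Of 35 such genes listed, 32 were measured; Ifnb1, Ifna4 and Ifng, which encode interferons, were not analysed here. In the 4OH-TAM libraries 16 of the 32 (50%) were higher and 8 (25%) lower than in HER2CA day 15, against 40.8% and 39.7% of all genes, with a median of 0.47. Tmem173, which encodes the DNA-sensing adaptor STING, was at 0.596 and 0.448 CPM in HER2CA day 15, 4.02 and 5.20 in the 4OH-TAM libraries, 8.76 and 8.80 in gliomaspheres and 0.845 and 1.07 in controls. Its highest libraries were the gliomaspheres, and it rose by 3.16 (SE 0.25) on the log2 scale in the 4OH-TAM libraries against HER2CA day 15. Tlr3, the endosomal RNA receptor, rose by 1.82 (SE 0.09), Ikbke, a kinase that activates interferon regulatory factors, by 2.02 (SE 0.14), and Irf8 by 2.36 (SE 0.21). Socs1, a feedback inhibitor of JAK kinases, was at 0.321 and 0.414 CPM in HER2CA day 15, 2.18 and 1.64 in the 4OH-TAM libraries, 2.68 and 2.23 in gliomaspheres and 1.77 and 2.31 in controls, low in HER2CA day 15. Controls overlapped both other groups, and both gliomasphere libraries lay above the 4OH-TAM libraries.

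Of the receptor genes, Ifnar1 was at -0.06 and Ifngr2 at 0.11, neither called, while Ifnar2 (0.44, SE 0.09) and Ifngr1 (0.69, SE 0.08) were higher in the 4OH-TAM libraries than in HER2CA day 15. Lower were Mb21d1, which encodes the DNA sensor cGAS (-1.23, SE 0.17), the adaptor Myd88 (-0.93, SE 0.12), the kinases Jak2 (-0.68, SE 0.07) and Tbk1 (-0.59, SE 0.08), Ptpn2, Jak1, Ptpn11 and Stat3. All 8 of these were higher in HER2CA day 15 than in controls, a comparison that shares the HER2CA day 15 libraries and in which 11 genes of this list were higher and 14 lower (34.4% and 43.8%, against 37.3% and 38.4% of all genes). For Myd88 the levels were 33.7 and 38.1 CPM in HER2CA day 15, 19.3 and 18.3 in the 4OH-TAM libraries, 11.3 and 13.3 in gliomaspheres and 13.3 and 17.0 in controls. For Jak2 they were 161 and 148 CPM in HER2CA day 15, 95.7 and 97.3 in the 4OH-TAM libraries, 97.7 and 108 in gliomaspheres and 114 and 111 in controls. Both peaked in HER2CA day 15 without overlap, a pattern that 7 of the 32 (21.9%) and 31.5% of all genes showed. For 15 of the 32 (46.9%) HER2CA day 15 was the lowest without overlap, against 30.2% of all genes.

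The other comparisons of this list also had calls in both directions. Against controls the 4OH-TAM libraries had 46.9% of the 32 higher and 15.6% lower (all genes 31.0% and 28.2%). Gliomaspheres had 28.1% higher and 34.4% lower than controls, near the 32.5% and 32.0% of all genes, and 43.8% higher and 31.2% lower than HER2CA day 15 (all genes 38.4% and 40.4%). They had 21.9% higher and 50% lower than the 4OH-TAM libraries (all genes 31.3% and 29.7%). In gliomaspheres Tmem173 (3.19, SE 0.22) was above controls, whereas Irf9 and Stat2 were at -0.09 and -0.03, not called.

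The libraries of a group were close to each other for most members. The median absolute log2 ratio of A to B, over members with a mean of at least 1 CPM in the group, was 0.05 in the 4OH-TAM libraries, 0.10 in HER2CA day 15, 0.17 in controls and 0.22 in gliomaspheres. Usp18 had the widest ratio in controls (0.69) and Ifit1 in gliomaspheres (0.66).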

How the data were processed

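Stranded mRNA libraries of 8 samples (4 groups of 2) were sequenced, per the labels' protocols. The file deposited by the authors gives raw counts by gene symbol, whole numbers that were not normalised, as the values show. Builds mm10 and GRCm38 and the tools featureCounts, FastQC and STAR 2.5.3a are named in the submitters' processing notes. The strand setting and annotation were not given in the sources used here. Without the strand setting, reads of Irf7, Usp18, Dhx58, Ifi35, Eif2ak2, Irf1 and Gbp2 may not be separable from a gene overlapping their exons on the opposite strand.

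One edgeR 4.0.16 quasi-likelihood model (TMM scaling, 1 mean per group, 4 residual df, common BCV 0.0685) was fitted to all 13607 genes, and p-values were adjusted over all of them by Benjamini-Hochberg for each of 6 comparisons. The filter on low counts removed no gene. The same fit was tested on simulated data first. Both libraries of each group were compared by chi-square, which per degree of freedom came to 4.05 to 733 over all genes and 1.47 to 2.75 over members, so no pair agreed within sampling noise. Expected counts over all genes used unscaled library totals. The 733 was for gliomaspheres, where Rn45s took 36.1% of the counts of B and 0.984% of those of A, and it includes that difference. Positions, exon lengths and shared 50-base stretches were taken from the GRCm38 annotation GENCODE M21, which holds 96.6% of the table's symbols and each of the 37 members. Over 5% of such stretches are shared with another gene in 9 members (Ifit1, Ifit3, Oas1a, Ifitm3, Rtp4, Trim30a, Gbp4, Gbp7 and Igtp), and Irf9, Rtp4, Parp14, Gbp4, Gbp7 and Igtp overlap exons of another gene on the same strand, so their counts are uncertain to that extent.

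The members, the 2 classes, the list of production and signalling genes, the list of relatives, the marker lists and the tests were chosen with earlier results of these data known. The values of 1 gene in the list of production and signalling genes are not reported here. Any member may be named; values in every library are given for those with the largest change in each class and comparison, for those against their class, and for others after their values were seen. Promoter sequences are from RefSeq. Alternatives were other scaling factors, filters, DESeq2 1.42.0, a 1.5-fold threshold, a 2-group fit, the replicate letter as a block, removal of Rn45s and Lars2, and each library left out in turn.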

Additional observations from a re-analysis of the deposited data

How the results depend on the processing

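Of 3084 log2 fold changes of members recomputed under the alternatives, 2940 kept their side of the threshold, 123 lost the call and 21 gained it. Among those called in the main fit or the alternative, 0 reversed direction. The direction of members called in neither fit was not compared, and these count among the 2940. The type I increase of the 4OH-TAM libraries over HER2CA day 15 stayed at 28 of 29 in each fit that left out 1 library. Upper-quartile factors moved the median of all genes by 0.21 in that comparison, by -0.16 in HER2CA day 15 against control and by 0.12 in gliomaspheres against HER2CA day 15, and no scaling factors moved the gliomasphere comparisons by -0.27 to -0.39. With 2 libraries a group, a leave-one-out fit assumes that the lone library varies like the other groups.

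Where a count below moved, the cause was not tested. The number of type I members higher in HER2CA day 15 than in controls, 5, was 3 with upper-quartile factors, 2 with no scaling factors, 2 against a 1.5-fold change and 3 to 5 with a library left out (3 without HER2CA day 15 B or without control A). The 17 lower were 9 against a 1.5-fold change. For gliomaspheres against control, the 2 type I members higher were 1 with no scaling factors, 1 with a filter of 5 CPM, 1 against a 1.5-fold change and 1 to 3 with a library left out (1 without control A); the 13 lower were 8 and the 3 gamma-type lower were 1 against a 1.5-fold change. For gliomaspheres against HER2CA day 15, the 9 type I higher were 3 with no scaling factors and 3 against a 1.5-fold change, and the 7 lower were 4 against it. The 2 gamma-type members lower in the 4OH-TAM libraries than in HER2CA day 15 were 1 with no scaling factors and 1 against a 1.5-fold change. For the 4OH-TAM libraries against control, the 0 type I members lower became 1, Ifit2, in the fit of only those 2 groups and 0 to 1 with a library left out (1 without control B).

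Counts over all genes fell with no scaling factors to 2037 lower in the 4OH-TAM libraries than in HER2CA day 15, 2304 higher in HER2CA day 15 than in control, 2115 higher and 539 lower in the 4OH-TAM libraries than in control, and 1386, 3030 and 749 higher in gliomaspheres than in control, HER2CA day 15 and the 4OH-TAM libraries. Against a 1.5-fold change they fell to 2339 lower in 4OH-TAM against HER2CA day 15, 2302 higher and 3154 lower in HER2CA day 15 against control, 1804 and 613 in 4OH-TAM against control, 1897 and 1496 in gliomaspheres against control, 3431 and 2806 against HER2CA day 15, and 1297 and 1728 against 4OH-TAM. With upper-quartile factors the split of higher to lower genes in 4OH-TAM against HER2CA day 15 was 6569 to 4109 rather than 5547 to 5400. The promoter share of members with a longer ISRE, followed by C, was 50%, against 0.819% of all windows.

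Letters A and B are shared between groups, but same-lettered libraries did not deviate together (correlations of A minus B between groups from -0.024 to 0.084). With 2 libraries a group, such low correlations cannot show that same-lettered libraries had no culture or batch in common. With the replicate block the number of type I members higher in the 4OH-TAM libraries than in HER2CA day 15 was 28, and no count moved beyond 1.5 times. The members' levels under 1 CPM rest on few reads and limit what can be seen for Oas1a, Mx1, Zbp1, Gbp4 and Iigp1 outside the 4OH-TAM libraries.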

Other observations

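Relatives of the members outside the list of 37 (40 genes, 33 of them measured) were read from the same fit. In the 4OH-TAM libraries 30 were called higher and 1 lower than in HER2CA day 15 by edgeR, with a median log2 fold change of 2.23, and 33 of 33 were higher than in controls (all genes 40.8%, 39.7% and 31.0%). Of the 33, 13 are in the table only through the 4OH-TAM libraries and had to be high there; among the other 20, 17 were higher and 1 lower than in HER2CA day 15 (median 1.86), and 20 were higher than in controls (median 1.18). Cmpk2, a mitochondrial kinase gene beside Rsad2, was at 1.37 and 0.966 CPM in HER2CA day 15, 15.0 and 15.4 in the 4OH-TAM libraries, 6.79 and 6.88 in gliomaspheres and 8.22 and 7.95 in controls. The 1 that fell was Gbp5, a guanylate-binding protein gene, which was at 14.0 and 13.5 CPM in HER2CA day 15, 3.45 and 3.25 in the 4OH-TAM libraries, 0.377 and 0.708 in gliomaspheres and 0.960 and 1.32 in controls. Gbp5 therefore had its highest libraries in HER2CA day 15, as Gbp2 and Gbp7 did.

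Another pattern was seen in gliomaspheres. Gbp9 was at 6.42 and 6.17 CPM in HER2CA day 15, 27.2 and 28.9 in the 4OH-TAM libraries, 47.8 and 41.4 in gliomaspheres and 4.84 and 4.61 in controls. Slfn9, of the Schlafen family, was at 0.871 and 1.03 CPM in HER2CA day 15, 3.64 and 3.90 in the 4OH-TAM libraries, 11.9 and 11.2 in gliomaspheres and 1.08 and 0.865 in controls. For these 2 of the 33 relatives both gliomasphere libraries were above the other 6 (20.1% of all genes), and each was also higher in the 4OH-TAM libraries than in controls (2.57 (SE 0.12) and 1.95 (SE 0.21)). Ifi204, a DNA-sensing family member, was at 21.1 and 23.0 CPM in HER2CA day 15, 22.1 and 22.4 in the 4OH-TAM libraries, 8.21 and 8.50 in gliomaspheres and 7.30 and 6.67 in controls, high in both day 15 groups as Ifitm3 was. Ifitm2, beside Ifitm3 in the family, was at 31.6 and 31.6 CPM in HER2CA day 15, 103 and 97.2 in the 4OH-TAM libraries, 63.9 and 66.2 in gliomaspheres and 85.4 and 84.6 in controls, so HER2CA day 15 was its lowest group, whereas for Ifitm3 it stood far above controls.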
